A study of Drosophila melanogaster with 6 samples.

Results

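The digestive metallocarboxypeptidases described here are 10 genes of Drosophila melanogaster of the M14 type, taken by name from the 14862 genes in the authors' deposited results of 1 comparison. They are CG12374, CG18417, CG17633, CG3097, CG3108, CG7025, CG8560, CG8562, CG4017 and CG2915, and all 10 were found. The list was chosen by family, with the deposited fold changes of the comparison already known, so the values below describe the genes and do not test the list. The samples are embryos of 16 to 20 h from oocytes that expressed InR-DN, a dominant-negative form of the insulin receptor, or GFP as the control. There are 3 InR-DN samples and 3 GFP control samples, each RNA of 200 embryos, from flies kept on standard food with yeast paste. The sources used here name neither the driver of the transgenes nor separate crosses for the samples of a group, so the p-values may measure technical spread only. The comparison asks which genes differ in embryos after insulin signalling was suppressed in the maternal germ line.

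M14 carboxypeptidases are zinc enzymes that cut single amino acids from the carboxyl end of proteins and peptides. The digestive kind is made by gut cells as a secreted precursor and works on the peptides that trypsin-like endopeptidases release from food. In insects these enzymes belong mainly to the midgut, the stretch of gut that secretes digestive enzymes and absorbs nutrients. The files give all 10 genes a CG number as their only name, so no role is stated for any one of them alone.

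Each gene has a log2 fold change, an average log2 count per 1000000 reads (CPM), p-values and the likelihood ratio statistic behind them in the authors' deposited table, and no value per sample. The sources used here do not say whether InR-DN or GFP is the numerator. The comparison is named with the control embryos first and the InR embryos second, but an order of names does not state the numerator. Values are therefore set on a positive side and a negative side of the fold change, with neither side assigned to InR-DN or to GFP. Genes with a single read take 12 distinct averages, 1 for each library of the authors' fit: 3 libraries set the positive side, 3 the negative, and 6 belong to neither. Recovered library sizes were, in units of 1000000 reads, 25.73 to 40.46 for the positive side and 23.42 to 31.13 for the negative. As the average CPM mixes all 12 libraries, a range of levels was computed for each side. Its upper end gives the 6 compared libraries all reads of the gene, and its lower end is the level at which counting noise alone yields the deposited statistic or, where this is higher, the level that the fold change requires with no read on the other side. The ends of both sides move together, since their ratio is the deposited fold change. A gap between the ranges of both sides is therefore no test of a difference, and the ranges cover counting error only. The limit for an absent gene, 3 reads over the 6 libraries, is 0.016 CPM. InR, the gene behind the transgene, has a log2 value of 0.25 in the authors' deposited table (adjusted p 1) and so does not identify the sides.

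CG12374 stood apart from the other 9 genes. The authors' deposited table gives it a log2 fold change of 10.96 ± 0.41 and an average of 61.7 CPM. Here and below the value after ± is an implied SE, the fold change divided by the root of the likelihood ratio statistic. The level of CG12374 could lie between 8.62 and 246 CPM on the positive side, against 0 to 0.119 CPM on the negative side. In reads over 3 libraries, this is at least 891 reads for the positive side and at most 10 for the negative. Since the negative side may have held 3 reads or fewer, the fitted fold can depend on the small prior count of the authors' fit. The implied SE of CG12374 therefore does not measure how closely its fold is known. The same limit holds for any other gene with so few reads on 1 side. Set against the level that 3 reads would give on the negative side, 0.0357 CPM, CG12374 was at least 242-fold higher on the positive side. Its statistic of 719 ranks 1 among all genes of the authors' deposited table, ahead of 560 for the midgut protease gene Jon25Bi. By fold change it ranks 3, behind CG6295 and CG17192, whose averages are lower, at 7.09 and 2.66 CPM in the authors' deposited table. In RNA of whole embryos, a difference in the number of cells of a type and one in the RNA of each cell cannot be told apart.

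The other 9 genes did not pass the threshold of the likelihood ratio test, an adjusted p under 0.05. The authors' deposited table thus calls 1 of the 10 genes, as positive, and 0 as negative. The same rule calls 2.30% of all genes for the positive side, 2.19% for the negative and 4.49% in all. At an unadjusted p under 0.05 there were 4 of the 10 (CG12374, CG8560, CG3097 and CG7025), beside 10.01% of all genes. Because the genes were listed with this comparison known, nothing is read from these shares. Signs were mixed, with 6 genes positive and 4 negative, and the median of the 10 deposited log2 fold changes was 0.17, beside 0.00 over all genes. An average of at least 1 CPM was reached by 6 of the 10.

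**Figure D1:**
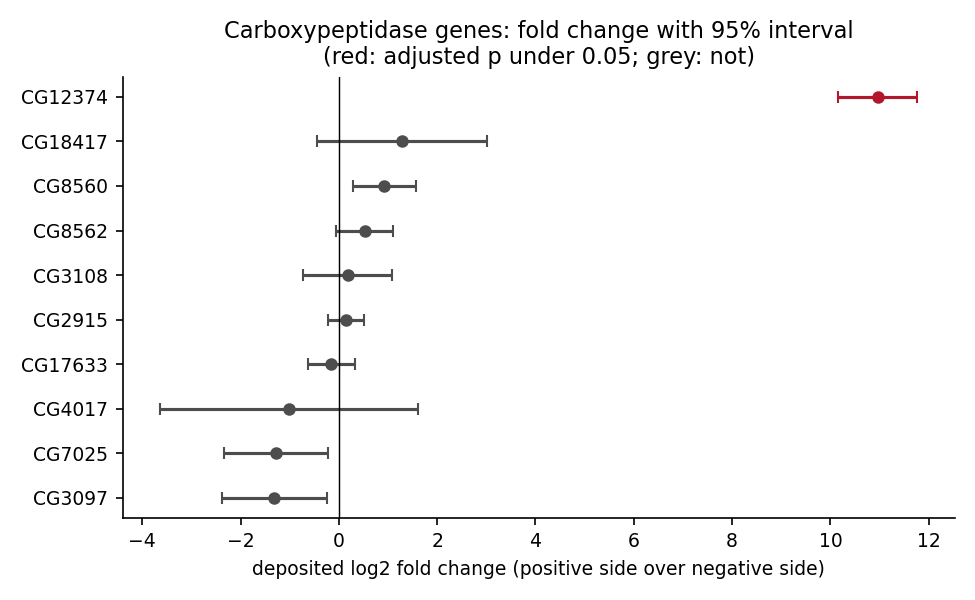
Deposited log2 fold change of the 10 carboxypeptidase genes (horizontal axis, positive over negative side) with a 95% interval from the implied SE. CG12374 lies at 10.96 and the other 9 genes between -1.31 and 1.28. Red marks CG12374, the gene that passed the adjusted threshold. Its interval does not measure how closely its fold is known, as the negative side held at most 10 reads.

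**Figure D2:**
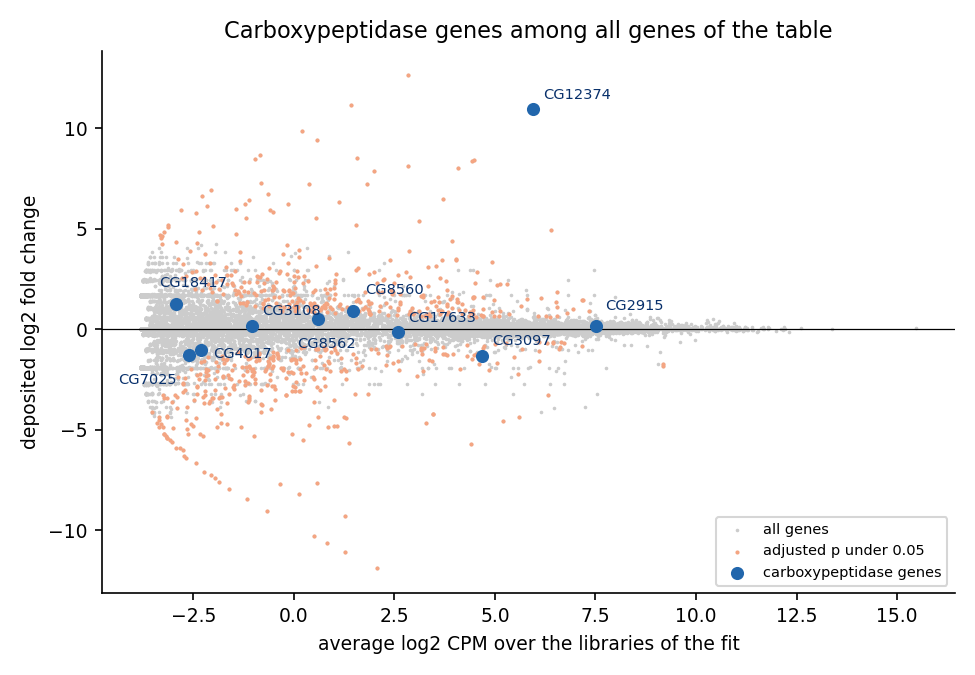
Deposited log2 fold change (vertical axis) against average log2 CPM over the 12 libraries of the fit (horizontal axis), with all 14862 genes in grey, called genes in orange and the 10 carboxypeptidase genes in blue. CG12374 lies at 10.96, and the other 9 blue points lie within 1.31 of 0.

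CG8562, CG18417 and CG8560, which lie side by side on chromosome arm 3L, were all on the positive side, and 0 of these 3 passed. CG8560 came nearest, at 0.92 ± 0.32 and an average of 2.77 CPM (adjusted p 0.0878) in the authors' deposited table. Its 95% interval ran from 0.29 to 1.56. The level of CG8560 could lie between 0.582 and 6.9 CPM on the positive side and between 0.305 and 3.64 CPM on the negative side. For CG8562 the authors' deposited table gives 0.53 ± 0.30 and 1.51 CPM, and the interval of the difference, from -0.06 to 1.11, includes 0. CG18417 was scarce, at 1.28 ± 0.88 and 0.131 CPM in the authors' deposited table. It had 8.25 to 16.7 reads over the positive-side libraries and 2.55 to 5.38 reads over the negative-side libraries. Its interval, from -0.45 to 3.01, also includes 0.

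CG3097 and CG7025 lay on the negative side, at nearly the same fold change and at very different averages. CG3097, on the X chromosome, has -1.31 ± 0.54 at 25.4 CPM (adjusted p 0.218) in the authors' deposited table. Its level could lie between 0.0901 and 29.1 CPM on the positive side and between 0.229 and 72 CPM on the negative side, so the files leave the level of CG3097 in these embryos nearly unknown. CG7025, on arm 2L, has -1.28 ± 0.54 at 0.164 CPM (adjusted p 0.255) in the authors' deposited table. The reads of CG7025 are known closely, at 9.19 to 10.9 over the positive-side libraries and 18.7 to 22 over the negative-side libraries. Its 95% interval ran from -2.35 to -0.22, and the difference did not pass over all genes.

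The remaining 4 genes had intervals that include 0. CG2915, with the highest average CPM of the list, has 0.15 ± 0.19 at 183 CPM in the authors' deposited table, and its interval ran from -0.22 to 0.52. CG17633 has -0.15 ± 0.24 at 5.98 CPM there, with an interval from -0.61 to 0.32. For CG2915 and CG17633 a 2-fold difference, 1 on the log2 scale, lies outside the interval. CG3108, at 0.18 ± 0.46 and 0.487 CPM in the authors' deposited table, had an interval from -0.73 to 1.09, which does not exclude such a difference on the positive side. CG4017, at -1.01 ± 1.34 and 0.201 CPM in the authors' deposited table, had at most 17.4 reads over the positive-side libraries and at most 28.8 over the negative-side libraries. Its interval ran from -3.63 to 1.61, so the table settles neither the size nor the direction of a difference in CG4017. Averages are per gene and not per length, so they do not order the genes by number of transcripts.

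**Figure D3:**
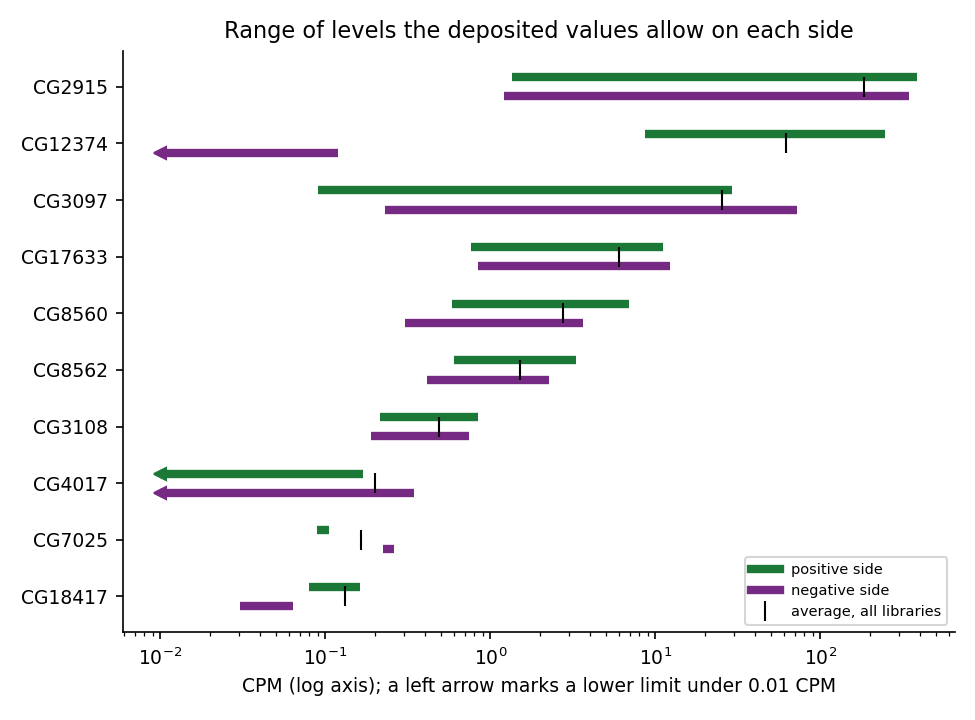
Range of CPM (log axis) that the deposited values allow for each of the 10 genes on the positive side (green, upper bar) and the negative side (purple, lower bar), with the average over all 12 libraries as a black tick. CG12374 lies at 8.62 CPM or more on the positive side and at 0.119 CPM or less on the negative side, and the bars of CG3097 and CG2915 are wide on both sides.

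Further carboxypeptidase genes were called on the negative side alone. A list of 14 further names, written by hand and not checked against protein sequences, gave 13 genes, since CG42264 appears in it under 2 names. It includes CG33301, which may not belong to this family and which did not pass. The authors' deposited table calls 2 of these 13, both negative, with 0 positive and 11 that did not pass, beside 2.30% (positive) and 2.19% (negative) of all genes. Their median log2 fold change was -0.23. CG18585 has -2.68 ± 0.41 at 0.512 CPM (adjusted p 7.04e-09) in the authors' deposited table. Its reads were 9.8 to 24.2 over the positive-side libraries, against 53.1 to 128 over the negative-side libraries. CG8539 has -0.74 ± 0.24 at 8.03 CPM (adjusted p 0.0412) in the authors' deposited table. Among the 11 others the smallest p on the positive side was that of NnaD, related to mammalian enzymes that trim glutamates from tubulin, at 0.97 ± 0.33 in the authors' deposited table (adjusted p 0.0613). CG31019 on the negative side had 5.38 reads at most over the negative-side libraries and 0.635 at most over the positive-side libraries, and no fold is given for it. CG8945 and CG4678, at 0.78 ± 0.68 and 0.51 ± 1.24 in the authors' deposited table, were scarce as well. The silver gene svr, whose carboxypeptidase D product trims peptides in the secretory pathway, has 0.07 ± 0.28 at 157 CPM there. Of all 23 genes, CG12374 was called on the positive side and CG18585 and CG8539 on the negative side. Whether CG12374 differs from the others was not tested.

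Gene order was read from the Release 6 annotation, and no coordinates are printed because the sources used here do not name the build behind the table. CG12374 and CG2915 both lie on arm 2R, neither with another gene of the lists next to it. The protein-coding genes on either side of CG12374 are Nacalpha, a subunit of the nascent polypeptide-associated complex, and sca, which encodes the secreted neurogenic protein scabrous. Nacalpha has 0.08 ± 0.23 at 518 CPM and sca has 1.60 ± 0.82 at 254 CPM in the authors' deposited table, with adjusted p-values of 1 and 0.507. On arm 3L the genes CG8564, CG8563, CG32379, CG8562, CG18417 and CG8560 follow one another, and the last 3 of these 6 had positive fold changes. Of the first 3, CG8563 has -0.23 ± 1.05 in the authors' deposited table, CG32379 has the average of a gene with 1 read, on the negative side, and CG8564 had no read in the compared libraries. On arm 2L, CG18585 and CG7025 are adjacent, and both lay on the negative side at -2.68 and -1.28 in the authors' deposited table. The X chromosome carries CG3097, CG42264 and CG3108 in a row, and their values are -1.31 ± 0.54, -1.91 ± 1.51 and 0.18 ± 0.46 in the authors' deposited table. CG42264 had 0.999 to 27.1 reads over the negative-side libraries and at most 8.57 over the positive-side libraries. The fold change of CG42264 can therefore depend on the prior count. The adjacent pair CG4017 and CG17633 of arm 2L has -1.01 ± 1.34 and -0.15 ± 0.24 in the authors' deposited table.

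**Figure D4:**
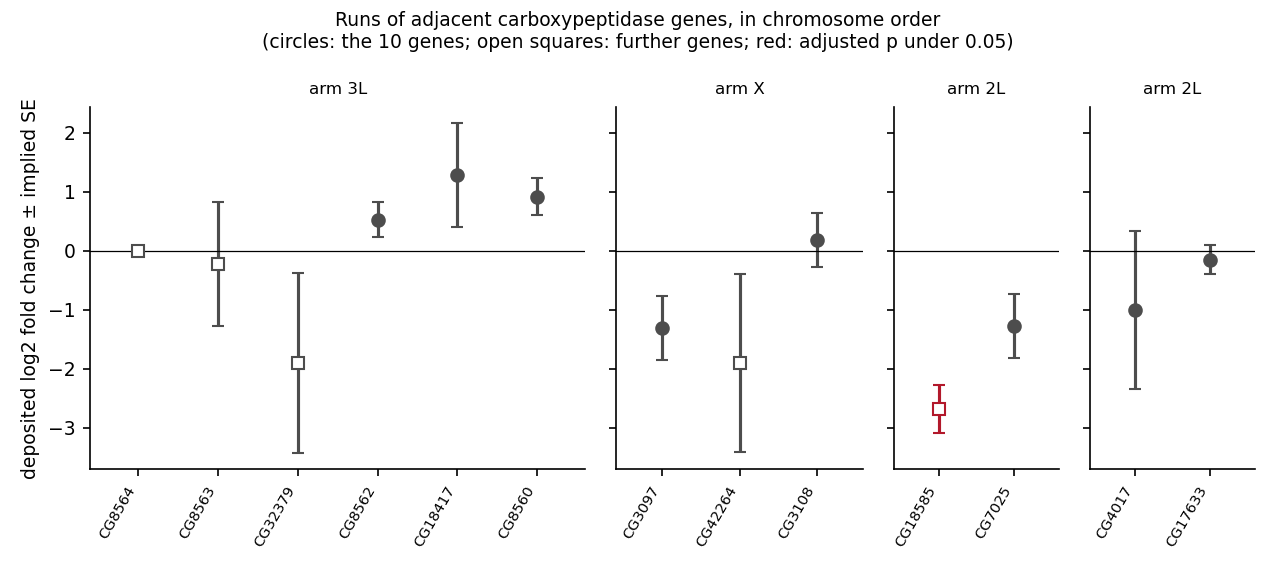
Deposited log2 fold change with 1 implied SE (vertical axis) for runs of adjacent carboxypeptidase genes in chromosome order, with circles for the 10 genes and open squares for the further genes. Red marks CG18585, which passed the adjusted threshold at -2.68, and its neighbour CG7025 lies at -1.28. The 3 circles of arm 3L lie between 0.53 and 1.28. CG8564, with no read in the compared libraries, is drawn at 0 with no error. CG32379 and CG42264 may each have had as few as 1 read in the compared libraries, so their points can depend on the prior count.

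Several of the 10 genes share their place with a gene of the opposite strand. The sources used here do not say whether strand was used in counting, so reads there may be split. CG3097 and CG3108 overlap CG42699, which has -0.03 ± 0.19 and the same average as CG3097, 25.4 CPM, in the authors' deposited table. CG4017 and CG17633 overlap ppk18, of the sodium channel family, at -1.13 ± 1.09 and 0.115 CPM there. CG2915 overlaps CG2906, which has 0.33 ± 0.27 at 12.8 CPM in the authors' deposited table. CG12374, CG7025, CG8560, CG8562 and CG18417 overlap no other annotated gene. Of the 10 genes 0 have both their average and their fold change in common with another gene, although reads of close paralogs may still be divided.

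The trypsin and Jonah endopeptidases make the peptides that carboxypeptidases trim. Of 27 such genes the authors' deposited table calls 19 as positive and 2 as negative, beside 2.30% and 2.19% of all genes, and their median log2 fold change was 1.56, beside 0.17 for the 10 carboxypeptidase genes. The smallest p-values were those of Jon25Bi (8.43 ± 0.36), Jon25Bii (8.01 ± 0.37) and betaTry (6.49 ± 0.33) in the authors' deposited table. Over the negative-side libraries they had 0.768 to 21.2, 0.925 to 21.2 and 2.78 to 47 reads. As for CG12374, these implied SEs may therefore not measure how closely the folds are known. CG12374 lay on the same side as these 3 genes. The difference between the lists was not tested.

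Of 8 marker genes of the midgut, the authors' deposited table calls 0, beside 4.49% of all genes. At an unadjusted p under 0.05 there were 0, beside 10.01% of all genes. The median log2 fold change of the 8 markers was 0.38. The smallest p-values were those of PGRP-SC2, an amidase that degrades bacterial peptidoglycan (0.57 ± 0.36), the Hox gene lab (1.54 ± 0.96) and the proton pump subunit gene Vha100-4 (0.50 ± 0.34) in the authors' deposited table. GATAe, a transcription factor of the endoderm, has 0.39 ± 0.41 at 13.4 CPM there. The summed level of the 8 markers could lie between 2.98 and 399 CPM on the positive side and between 2.33 and 326 CPM on the negative side. Most of these upper ends came from 1 marker, srp, at 346 CPM (positive) and 292 CPM (negative). The sum is therefore mainly a range for srp, and whether srp marks the midgut at this age was not checked. PGRP-SC1a has the average of a gene with 1 read, so it does not mark the midgut here. PGRP-SC1b was scarce as well, with at most 1.28 reads over the positive-side libraries and 3.69 over the negative-side libraries. Both genes are included in the count of calls and in the median of the 8 markers. The part of midgut content in the value of CG12374 was not tested.

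Markers of other tissues were called on both sides. Of 4 fat body genes 2 were called on the positive side, beside 2.30% of all genes. They are Lsp2 (3.73 ± 0.39) and Lsp1beta (2.71 ± 0.63) in the authors' deposited table. Fbp1 and Fbp2 did not pass and were scarce, with at most 6.69 and 3.54 reads over the positive-side libraries. Over the negative-side libraries they had at most 1.42 and 3.48 reads, and the deposited fold change of Fbp2 was negative. Of 4 Malpighian tubule genes 3 were called on the negative side, beside 2.19% of all genes. They are Uro (-4.38 ± 0.35), Oatp58Dc (-3.26 ± 0.34) and Irk2 (-1.13 ± 0.36) in the authors' deposited table. For the tubule, 1 further listed name was not matched. Summed levels of the fat body genes could lie between 1.38 and 3.31 CPM on the positive side and between 0.126 and 0.338 CPM on the negative side, and those of the tubule genes between 0.61 and 58.9 CPM on the positive side and between 3.47 and 339 CPM on the negative side. Of 4 muscle genes and 7 ovary and egg genes 0 were called, beside 4.49% of all genes. Among them 1 gene, Act57B, had an unadjusted p under 0.05, beside 10.01% of all genes. Mhc encodes the muscle myosin heavy chain, which late embryos are known to express strongly. It could reach at most 7.17 CPM on the positive side, against 5.06 CPM on the negative side. Over the 4 muscle genes these upper ends ran from 4.78 to 64.2 CPM (positive) and from 3.76 to 43.9 CPM (negative), with Act57B the highest. For the 7 ovary and egg genes they ran from 161 to 9.68e+03 CPM (positive) and from 130 to 8.89e+03 CPM (negative). The lower ends of these 7 sum to only 3.48 and 2.77 CPM, so their level in these embryos is nearly unknown. Whether the marker levels match the stated age of the embryos was not tested. The part of these tissues in the value of CG12374 was not tested.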

How the data were processed

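The table analysed is the authors' result of edgeR's likelihood ratio test (glmLRT), per the file headers, with a row for each of 14862 genes. The submitters' processing notes name FastQC, Bowtie and TopHat; their versions, the read counter, build and filters are not given in these sources. The deposited fold change and average level are on a log2 scale. The authors' likelihood ratio is a score, and the deposited p-value and adjusted p-value equal its chi-square tail and the Benjamini-Hochberg value within 1e-12. With no value per sample, the count test first planned gave way to the deposited values, unrefitted, at an adjusted p under 0.05.

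Library sizes were solved from the average log2 CPM of single-read genes (prior count 2, dispersion 0.0533). Of 78 averages that 2 reads would give, 76 occur in the table within 1e-05. The authors are taken to have used edgeR's default prior counts. Ranges of levels assume that the libraries of a side share reads in proportion to size. The steps were run on data simulated with the same prior counts and the same formula for the average. That run therefore checks the computation and not these assumptions, and its simulated fold changes were smaller than that of CG12374. Python 3.11.15, numpy 2.4.6, pandas 2.3.3, scipy 1.17.1 and matplotlib 3.10.9 were used.

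The 10 genes and all lists were chosen with earlier results of these data known. Besides the 10 genes, the rule for named genes takes up to 3 per list with the smallest p-value (per side for the further carboxypeptidases). Other named genes (svr, CG33301, GATAe, srp, PGRP-SC1a, PGRP-SC1b, Fbp2, Mhc, CG14516, CG32473, the adjacent and overlapping genes, and those ranked beside CG12374) were chosen after their values were seen. Protein and promoter comparisons were not made.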

Additional observations from a re-analysis of the deposited data

How the results depend on the processing

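Calls were repeated with an adjusted p under 0.01, with a log2 fold change of at least 1 in size, with a minimum average of 1 CPM and a new adjustment over 8732 genes, and with a Bonferroni adjustment. Under each of these 4 alternatives CG12374 was the 1 carboxypeptidase gene of the list called. With the minimum average, only 6 of the 10 genes and 3 of the 13 further genes were tested. Of the further carboxypeptidase genes 2 were called in the deposited adjustment and 1 under each alternative. CG8539 (log2 fold change -0.74) was lost at 0.01, at the minimum fold change and under Bonferroni, and CG18585 averages less than 1 CPM. Over all genes 667 were called, against 344 with the minimum average and 294 under Bonferroni. On the positive side these were 342, 209 and 141, and on the negative side 325, 135 and 153. An adjusted p under 0.01 called 490 of all genes, and the minimum fold change called 569. Identity limits for relatives were not run. No paired analysis was possible because the table holds no value per sample, and for the same reason no sample could be left out. The averages include the 6 libraries outside the comparison, so they do not give the level of a gene in the embryos compared, and the reads of CG18417 there were at most 16.7 on the positive side, against 5.38 on the negative side.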

Other observations

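M1 aminopeptidases, which cut single amino acids from the other end of peptides, were mostly not called. Of 11 such genes 8 did not pass, and the authors' deposited table calls 0 as positive and 3 as negative, beside 2.30% and 2.19% of all genes. Called or not, 7 of the 11 had a positive fold change, and the median was 0.04. The called genes are CG31343 (-2.08 ± 0.30), CG31198 (-1.57 ± 0.24) and CG8774 (-2.07 ± 0.36), with the implied SE after ±. CG8774 had 16.3 to 32.3 reads over the positive-side libraries, against 56.9 to 112 over the negative-side libraries. The authors' deposited table gives CG14516 (203 CPM) a log2 fold change of 0.01 ± 0.24 and CG32473 (160 CPM) one of 0.04 ± 0.18, so that a 2-fold difference lies outside both 95% intervals. The list was written by hand and not checked against protein sequences.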
